A study of Mus musculus with 10 samples.

Results

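The set described here holds 43 genes of the cell cycle and DNA replication, chosen by name for the roles these genes are known to have. All 43 were found among the 37991 identifiers of the deposited expression table, and all 43 had a mean of at least 1 FPKM (fragments per kilobase of transcript, scaled to library size) over the 10 libraries, as did 12054 genes in all. The libraries were made from poly(A)-selected RNA, 100 ng of total RNA each, of keratinocytes, the cells that make up most of the epidermis, cultured from mouse skin at postnatal day 4 to 5. In knockout cultures both copies of Bcl10 carried the targeted allele Bcl10tm1Mak, and in heterozygous littermate cultures 1 copy did, per the labels. BCL10 is an adaptor protein of NF-κB signalling that works in a complex with MALT1. The mutation was in every cell of the animal as far as the labels say, and all cultures carried at least 1 mutant copy. The medium was serum-free and held 0.05 mM calcium chloride, and cells were left unstimulated or received 200 ng/mL of recombinant mouse IL-17A, a cytokine that acts on keratinocytes, for 5 h. The knockout label applied to 4 libraries, 2 unstimulated and 2 with IL-17A, and the heterozygous label to 6, 3 of each. A culture below means the unstimulated and the IL-17A library that share a labelled genotype and number. The labels do not say whether cultures came from separate pups, and p-values then reflect only how these libraries varied.

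Before the results, some labels have to be questioned. Bcl10 stood at 59.5 to 72.3 FPKM in heterozygous cultures 2 and 3, at 16.3 to 18.0 in heterozygous culture 1, at 0.969 in the unstimulated library of knockout culture 1 and at 16.4 to 17.0 in the other 3 knockout libraries. The libraries labelled heterozygous culture 1 thus had Bcl10 at the level of those 3 knockout libraries. Counts and tests between genotypes below are therefore also given without heterozygous culture 1, and their direction rests on the labels. The 2 libraries of knockout culture 1 differed in Bcl10, 0.969 FPKM unstimulated and 16.4 with IL-17A. Their pairing as 1 culture rests on the labels too. The libraries labelled knockout and heterozygous culture 1 are also numbered 1 to 14, and heterozygous cultures 2 and 3 are numbered 33 to 38. For cultures 2 and 3 the genotype and this number set cannot be told apart. The keratinocyte markers Krt5 (4430 to 6426 FPKM) and Krt14 (3723 to 5015 FPKM) were high in every library, and the differentiation keratins Krt1 and Krt10 stayed at or below 1.78 FPKM. Other differentiation markers were present, Ivl at 6.41 to 12.3 and Lor at 0.522 to 6.64 FPKM. The differentiation list summed to 9.64 to 23.0 FPKM without Flg, for which no entry was found. The summed level of 5 genes known to respond to IL-17A was 86.1 to 97.8 FPKM unstimulated and 181 to 209 FPKM with IL-17A. Depth, estimated from the steps of low values, was 15.95 M to 49.9 M fragments per library.

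Cells enter the cycle when D-type cyclins with CDK4, and then cyclin E with CDK2, release E2F transcription factors, whose targets include the genes for licensing and copying DNA. CDC6 and CDT1 load the MCM helicase at replication origins, and cyclin B with CDK1, the Polo and Aurora kinases and the spindle checkpoint then carry the cell through mitosis. In the epidermis proliferation belongs to the basal layer, and low-calcium medium keeps cultured keratinocytes in that basal, dividing state. In bulk RNA, fewer cycling cells and less RNA per cycling cell cannot be told apart.

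All roles were represented at readily measured levels. Mean levels over the 10 libraries ran from 5.01 FPKM for Foxm1 to 287 FPKM for Ccnd1, with a median of 29.6 FPKM over the 43 genes. These FPKM levels are per length and can be set side by side between genes. Gene positions given below are whole-gene spans, exons and introns, on GRCm38 (mm10) in the GENCODE annotation. In what follows, paired values are FPKM levels in the order unstimulated, then IL-17A. Changes are differences on the log2(FPKM + 1) scale, with the standard error (SE) and the adjusted p of limma after Benjamini-Hochberg adjustment over the 12054 genes.

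**Figure D1:**
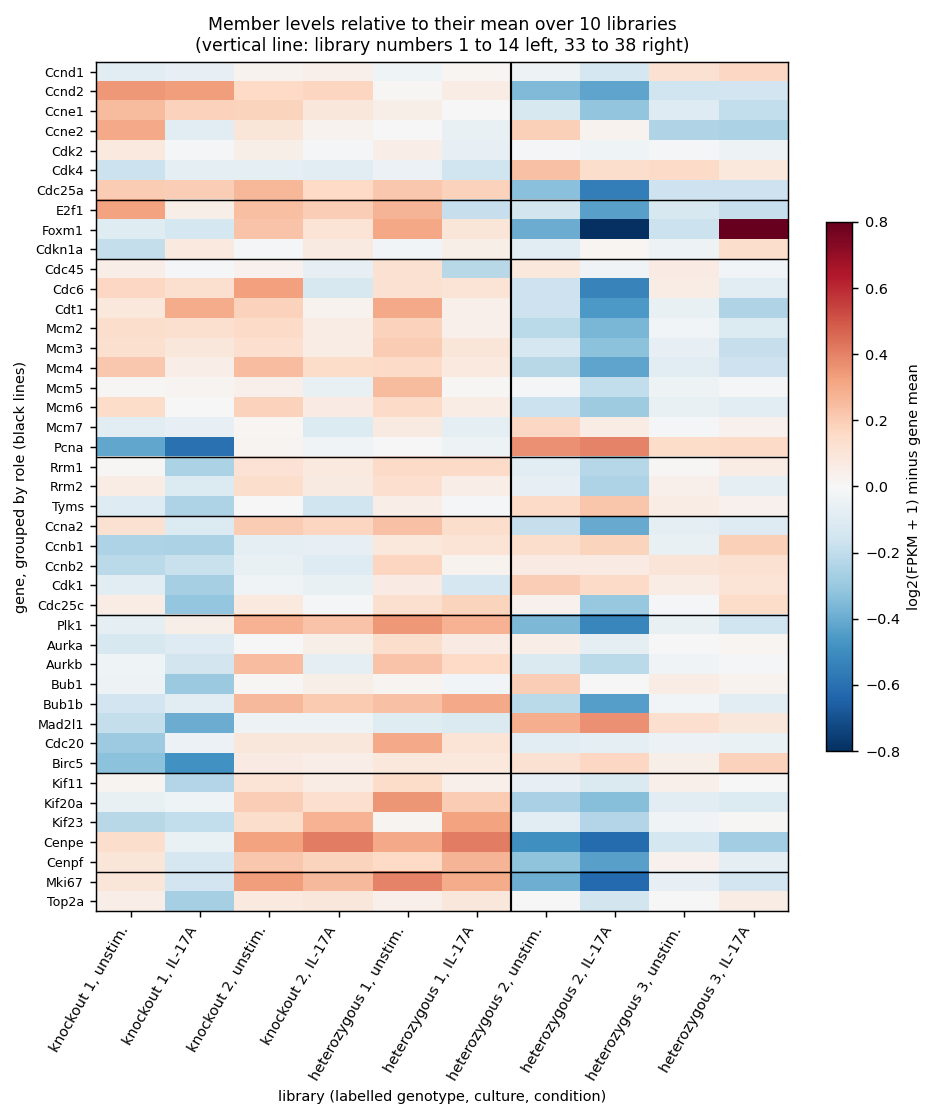
Levels of the 43 genes (rows, grouped by role) in the 10 libraries (columns), each as log2(FPKM + 1) minus the gene's mean over the libraries, from -0.8 (blue) to 0.8 (red). Columns right of the vertical line are heterozygous cultures 2 and 3 (library numbers 33 to 38), where Mki67, Cenpe and Cdc25a lie below their means and Pcna and Mad2l1 above.

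Among the G1 and G1/S genes, Ccnd1 (ENSMUSG00000070348, chromosome 7, 144929931 to 144939925), which encodes cyclin D1, was the most abundant member. Its level was 269 and 274 FPKM in knockout culture 1, 292 and 295 in knockout culture 2, and 279 and 289, 279 and 259.9, and 312 and 321 in heterozygous cultures 1, 2 and 3. Every library lay between 259.9 and 321 FPKM, and the groups overlapped. Its change with IL-17A over the 5 cultures was 0.01 (SE 0.08). Ccne2, which encodes cyclin E2, stood at 18.8 and 14.05 FPKM in knockout culture 1, 16.1 and 15.4 in knockout culture 2, and 15.1 and 14.4, 17.3 and 15.3, and 12.6 and 12.5 in heterozygous cultures 1, 2 and 3. It was lower with IL-17A in all 5 cultures, the most in knockout culture 1 (log2 change -0.40, against -0.16 to -0.01 in the others), and its mean change was -0.14 (SE 0.10). Cdc25a, the phosphatase that removes inhibitory phosphates from CDK2, was 22.4 and 22.4 FPKM in knockout culture 1, 23.5 and 21.8 in knockout culture 2, and 22.6 and 22.2, 15.2 and 12.9, and 17.2 and 17.2 in heterozygous cultures 1, 2 and 3. Its 4 libraries numbered 33 to 38 all lay below the 6 numbered 1 to 14, with no overlap. Cdk4, the kinase partner of cyclin D, was 62.02 and 66.4 FPKM in knockout culture 1, 66.4 and 65.97 in knockout culture 2, and 67.6 and 62.6, 82.5 and 77.4, and 77.98 and 74.1 in heterozygous cultures 1, 2 and 3. Here the order was the opposite, with the 4 libraries numbered 33 to 38 above the other 6. Exons of Cdk4 overlap those of Tspan31 on the opposite strand, which averaged 69.4 FPKM and was also higher in those libraries (73.5 to 85.7 FPKM, against 59.2 to 65.3). No source used here gives the strand setting of the counting, so reads of these genes may be shared. Exons of Cdk2 likewise overlap those of Pmel, a pigment gene at 39.2 to 87.5 FPKM. The remaining members of the group, Ccnd2, Ccne1 and Cdk2, ranged from 11.6 FPKM (Ccne1 in heterozygous culture 2 with IL-17A) to 186 FPKM (Ccnd2 in knockout culture 1 unstimulated).

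Of the transcription factors and the CDK inhibitor, E2f1 (ENSMUSG00000027490, chromosome 2, 154559407 to 154569892), the activator of the S-phase programme, was present at 8.82 and 7.13 FPKM in knockout culture 1, 8.3 and 8.04 in knockout culture 2, and 8.52 and 5.93, 6.1 and 4.83, and 6.2 and 5.91 in heterozygous cultures 1, 2 and 3. In each genotype every IL-17A library lay below every unstimulated library, which held for 13 of 43 members in knockout cultures (13.5% of all genes) and for 3, with Cdc45 and Cdk2, in heterozygous cultures (2.05%). Its mean IL-17A change was -0.22 (SE 0.10), the lowest of the 43 genes, but with an adjusted p of 0.9999 in limma it did not pass the test. Cdkn1a, which encodes the CDK inhibitor p21, was 151 and 182 FPKM in knockout culture 1, 171 and 181 in knockout culture 2, and 169.9 and 179, 163 and 175, and 168 and 190.2 in heterozygous cultures 1, 2 and 3. It was the only member whose IL-17A libraries all lay above the unstimulated ones, in knockout cultures (13.0% of all genes) and in heterozygous cultures (1.5%). Its mean change of 0.14 (SE 0.07) also did not pass (adjusted p = 0.9999, limma). Foxm1, a transcription factor of mitotic genes, stood at 4.38 and 4.23 FPKM in knockout culture 1, 5.74 and 5.22 in knockout culture 2, and 6.13 and 5.14, 3.36 and 2.28, and 4.1 and 9.56 in heterozygous cultures 1, 2 and 3. The highest value was that of heterozygous culture 3 with IL-17A, while in the other 4 cultures the IL-17A library was the lower one (log2 changes -0.04 to -0.41). Its SE for the mean IL-17A change, 0.29, was the largest of all members.

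Genes that license and copy DNA formed the largest role group, with 10 members. Cdc6, the loader of the MCM helicase, was 9.997 and 9.72 FPKM in knockout culture 1, 11.3 and 7.99 in knockout culture 2, and 9.7 and 9.58, 7.73 and 5.78, and 9.24 and 8.24 in heterozygous cultures 1, 2 and 3. Cdt1, its partner in licensing, was 31.1 and 36.1 FPKM in knockout culture 1, 33.3 and 29.9 in knockout culture 2, and 36.3 and 30.1, 25.9 and 20.98, and 28.03 and 24.6 in heterozygous cultures 1, 2 and 3. Cdc6 was lower with IL-17A in 5 of 5 cultures and Cdt1 in 4 of 5, with knockout culture 1 (0.21) as the exception. Mcm2, a helicase subunit, stood at 49.05 and 48.8 FPKM in knockout culture 1, 49.7 and 46.5 in knockout culture 2, and 50.6 and 45.7, 38.2 and 34.3, and 43.8 and 41.1 in heterozygous cultures 1, 2 and 3. Mcm3 was 62.5 and 60.99 FPKM in knockout culture 1, 62.95 and 59.5 in knockout culture 2, and 66.03 and 61.3, 52.04 and 45.2, and 54.5 and 50.2 in heterozygous cultures 1, 2 and 3. Mcm4 was 64.5 and 57.6 FPKM in knockout culture 1, 65.9 and 61.4 in knockout culture 2, and 61.8 and 58.7, 47.4 and 41.04, and 52.1 and 49.2 in heterozygous cultures 1, 2 and 3. For all 3 subunits, and for Mcm6, the IL-17A library was the lower one in each of the 5 cultures, and the 4 libraries numbered 33 to 38 lay below the other 6. Mcm5, Mcm7 and Cdc45 spanned 43.6 to 59.9, 31.8 to 38.8 and 10.03 to 13.0 FPKM, and their number sets overlapped. Pcna, the sliding clamp of DNA polymerase, ran the other way at 72.8 and 63.9 FPKM in knockout culture 1, 98.8 and 95.7 in knockout culture 2, and 97.3 and 94.6, 126 and 129, and 108 and 108 in heterozygous cultures 1, 2 and 3. Heterozygous cultures 2 and 3 were highest, and knockout culture 1 was below every other library. The pseudogene copy Pcna-ps2 was at 47.9 to 60.5 FPKM in the 4 libraries numbered 33 to 38 and at 40.8 to 46.1 FPKM in the other 6, with knockout culture 1 at both ends of that lower range. Reads may have been shared between the 2 entries, so the level of Pcna is uncertain.

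Shown are the start-site windows of Mcm3 and Mcm6. Among the 4 MCM genes lower with IL-17A in all 5 cultures, these had matches to the E2F letters given below. Mcm5 and Mcm7 were lower in 3 of 5 cultures. RefSeq places both windows on GRCm38.p6 (250 bases before the start to 50 after, minus strand for both). Mcm3 is at chr1:20820263-20820562 and Mcm6 at chr1:128359656-128359955. Capitals mark matches, on either strand, to the E2F letters TTTGGCGC, TTTCCCGC, TTTGGCGG or TTTCGCGC, or to CCAAT, and matches may overlap.
Mcm3: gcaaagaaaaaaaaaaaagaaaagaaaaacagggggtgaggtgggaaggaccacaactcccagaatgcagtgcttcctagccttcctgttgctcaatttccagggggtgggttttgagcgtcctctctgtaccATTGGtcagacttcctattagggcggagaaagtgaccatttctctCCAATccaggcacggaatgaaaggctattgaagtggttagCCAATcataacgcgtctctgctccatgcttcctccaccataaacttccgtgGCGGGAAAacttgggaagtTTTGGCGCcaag
Mcm6: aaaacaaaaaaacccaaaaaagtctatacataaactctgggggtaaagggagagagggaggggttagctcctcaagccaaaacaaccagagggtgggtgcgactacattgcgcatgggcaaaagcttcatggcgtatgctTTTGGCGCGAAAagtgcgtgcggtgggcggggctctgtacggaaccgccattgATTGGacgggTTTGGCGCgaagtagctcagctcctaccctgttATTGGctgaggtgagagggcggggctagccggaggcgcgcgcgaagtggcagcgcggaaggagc
The Mcm3 window holds 2 E2F matches and 3 CCAAT matches, and the Mcm6 window holds 3 and 2. A window was available for 34 of the 43 members. E2F letters occurred in 9 of these 34 (26.5%), namely Mcm3, Mcm5, Mcm6, Mcm7, Cdt1, Cdc6, Cdc25a, Cdk1 and Cdk2, against 2.7% of 27025 genes with a window. Mcm2 had no E2F match and Mcm4 had no window, while Mcm5 and 1 window of Mcm7 had 2 matches each. E2f1, Ccne1, Rrm2 and Cdc45, also lower with IL-17A in all 5 cultures, had no E2F match. A match describes letters in a window and is not evidence of binding, and its relation to the IL-17A changes was not tested.

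For nucleotide supply, Rrm2 (ENSMUSG00000020649, chromosome 12, 24708241 to 24714146), the S-phase subunit of ribonucleotide reductase, was the most abundant at 164 and 146 FPKM in knockout culture 1, 174 and 166 in knockout culture 2, and 173 and 163, 151 and 133, and 162 and 149 in heterozygous cultures 1, 2 and 3. It was lower with IL-17A in 5 of 5 cultures. Rrm1, the large subunit, was 100 and 83.3 FPKM in knockout culture 1, 108 and 105 in knockout culture 2, and 110.5 and 111, 93.1 and 84.8, and 99.9 and 104 in heterozygous cultures 1, 2 and 3. Its level was lower in both knockout cultures and in heterozygous culture 2, and higher in heterozygous cultures 1 and 3. Tyms, which makes thymidylate, was far less abundant, at 5.14 to 7.50 FPKM.

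Among the cyclins of S, G2 and M phase, Ccna2, which encodes cyclin A2, was 60.4 and 51.2 FPKM in knockout culture 1, 64.03 and 62.6 in knockout culture 2, and 65.4 and 61.03, 48.7 and 41.6, and 52.7 and 51.5 in heterozygous cultures 1, 2 and 3. It was lower with IL-17A in 5 of 5 cultures. Ccnb1, which encodes cyclin B1, was 21.5 and 21.5 FPKM in knockout culture 1, 24.4 and 24.5 in knockout culture 2, and 27.4 and 27.9, 28.5 and 29.3, and 24.7 and 29.5 in heterozygous cultures 1, 2 and 3. The knockout libraries were below all heterozygous ones in each condition, and IL-17A values were higher in 4 of 5 cultures. A pseudogene copy, Ccnb1-ps, averaged 12.7 FPKM, so the level of Ccnb1 is uncertain. Cdk1, the mitotic kinase, was 51.3 and 45.3 FPKM in knockout culture 1, 53.6 and 52.4 in knockout culture 2, and 57.2 and 49.8, 62.96 and 60.99, and 57.1 and 59.1 in heterozygous cultures 1, 2 and 3. Its libraries in heterozygous culture 2 were the highest, and knockout culture 1 with IL-17A was the lowest. Ccnb2 and Cdc25c, a cyclin and the phosphatase that activates CDK1, spanned 34.8 to 46.0 and 5.43 to 8.03 FPKM.

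Of the mitotic kinases and checkpoint genes, Plk1 (ENSMUSG00000030867, chromosome 7, 122159439 to 122169873), the Polo kinase of mitotic entry, was 39.4 and 43.1 FPKM in knockout culture 1, 50.9 and 49.2 in knockout culture 2, and 53.5 and 50.97, 32.3 and 28.8, and 39.99 and 37.2 in heterozygous cultures 1, 2 and 3. Heterozygous culture 2 was the lowest culture, and heterozygous culture 1 and knockout culture 2 were the highest. Aurkb, the Aurora kinase of the chromosomal passenger complex, was 14.9 and 13.6 FPKM in knockout culture 1, 18.3 and 14.4 in knockout culture 2, and 18.01 and 17.1, 13.97 and 12.96, and 14.96 and 15.1 in heterozygous cultures 1, 2 and 3. Cdc20, which activates the anaphase-promoting complex, was 41.9 and 49.7 FPKM in knockout culture 1, 54.8 and 54.8 in knockout culture 2, and 63.6 and 55.6, 48.3 and 48.7, and 49.7 and 49.5 in heterozygous cultures 1, 2 and 3. Both overlapped between genotypes in each condition. The remaining 5 members (Aurka, Bub1, Bub1b, Mad2l1 and Birc5) lay between 12.3 and 48.8 FPKM. Mad2l1, a spindle checkpoint gene, was at 40.2 to 48.8 FPKM in the libraries numbered 33 to 38 and at 28.4 to 36.7 FPKM in the other 6, without overlap.

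The motor and centromere genes included Kif20a, a kinesin of cytokinesis, at 22.98 and 23.5 FPKM in knockout culture 1, 27.7 and 26.5 in knockout culture 2, and 31.02 and 27.8, 19.9 and 18.7, and 22.5 and 22.2 in heterozygous cultures 1, 2 and 3. Kif11, the kinesin that separates spindle poles, was 19.6 and 16.3 FPKM in knockout culture 1, 20.98 and 20.2 in knockout culture 2, and 21.5 and 19.9, 18.4 and 17.8, and 19.9 and 19.4 in heterozygous cultures 1, 2 and 3. Cenpe (ENSMUSG00000045328, chromosome 3, 135212537 to 135273611), a kinetochore motor, was 12.9 and 11.1 FPKM in knockout culture 1, 14.8 and 15.7 in knockout culture 2, and 14.5 and 15.8, 7.98 and 7.22, and 10.5 and 9.4 in heterozygous cultures 1, 2 and 3. For Kif20a and Cenpe the 4 libraries numbered 33 to 38 were all below the other 6, while Kif11 overlapped. Kif23 and Cenpf spanned 18.4 to 27.5 and 5.5 to 9.59 FPKM. The proliferation marker Mki67 (ENSMUSG00000031004, chromosome 7, 135689784 to 135716361), which codes for the Ki-67 protein of cycling cells, was 24.5 and 20.4 FPKM in knockout culture 1, 29.1 and 27.6 in knockout culture 2, and 30.4 and 28.3, 17.2 and 14.5, and 21.8 and 20.4 in heterozygous cultures 1, 2 and 3. It was lower with IL-17A in 5 of 5 cultures, and lowest in heterozygous culture 2. Top2a, the topoisomerase that untangles sister chromatids, was 46.9 and 37.4 FPKM in knockout culture 1, 47.7 and 48.1 in knockout culture 2, and 46.5 and 48.2, 44.96 and 40.7, and 45.1 and 47.01 in heterozygous cultures 1, 2 and 3. The lowest libraries were knockout culture 1 and heterozygous culture 2 with IL-17A, and the other 8 lay between 44.96 and 48.2 FPKM.

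The windows of Plk1 and Mki67 are shown as those of 2 mitosis-linked genes that were low in heterozygous culture 2. Plk1 is at chr7:122159185-122159484 (plus strand) and Mki67 at chr7:135716330-135716629 (minus strand), on GRCm38.p6 from RefSeq. Capitals mark CHR letters (TTTGAA or TTCGAA, on either strand) and CCAAT, motifs found in promoters of many G2 and M phase genes.
Plk1: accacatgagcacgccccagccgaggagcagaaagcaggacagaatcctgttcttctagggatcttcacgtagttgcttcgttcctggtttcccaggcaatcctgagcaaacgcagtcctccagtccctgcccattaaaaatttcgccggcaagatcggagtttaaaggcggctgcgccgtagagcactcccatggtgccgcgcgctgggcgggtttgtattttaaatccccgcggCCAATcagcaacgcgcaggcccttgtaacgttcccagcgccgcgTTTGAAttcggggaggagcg
Mki67: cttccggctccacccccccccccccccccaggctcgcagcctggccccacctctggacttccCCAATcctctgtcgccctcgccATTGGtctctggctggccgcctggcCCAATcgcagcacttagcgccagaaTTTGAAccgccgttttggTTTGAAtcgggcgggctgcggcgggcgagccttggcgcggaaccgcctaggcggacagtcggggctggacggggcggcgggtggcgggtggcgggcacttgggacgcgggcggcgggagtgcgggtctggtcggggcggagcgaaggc
Plk1 has 1 CHR match and 1 CCAAT match, and Mki67 has 2 and 3. Both motifs together occurred in 15 of the 34 members with a window (44.1%) and in 9.65% of all genes with one. Of other mitotic members low in heterozygous culture 2, Bub1b and Cenpf had CHR matches and Cenpe had none. Ccnb2 and Cdk1, which were not low there, had 2 CHR matches each. The relation of these motifs to the culture differences was not tested.

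The first question was whether 5 h of IL-17A altered these genes. No member passed an adjusted p of 0.05 in limma, in heterozygous cultures (0 of 43, where 0.0083% of all genes passed), in knockout cultures (0 of 43, against 0.0249%) or over all 5 cultures (0 of 43, against 0.0415%). None had an unadjusted p under 0.05 either, against 1.34%, 1.46% and 1.43% of all genes. These fits did not pair the libraries of a culture. Over the 5 cultures 172 genes had such a p, fewer than the 603 expected without any change, so the test was a cautious one. The median change of the 43 genes was -0.06 in heterozygous cultures, -0.08 in knockout cultures and -0.07 over the 5 cultures, beside medians over all genes of -0.01, -0.00053 and -0.0077. By culture, members with the lower value in the IL-17A library numbered 30 and 32 of 43 in knockout cultures 1 and 2, and 32, 35 and 26 of 43 in heterozygous cultures 1, 2 and 3. The shares of all genes with the lower value were 49.1% and 50.8%, and 52.7%, 53.9% and 51.6%, in the same order.

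Small differences in the same direction were common among the members all the same. In all 5 cultures 15 of 43 members (34.9%) were lower with IL-17A, against 4.29% of all genes. These were Ccne1, Ccne2, Cdk2, Cdc25a, E2f1, Cdc45, Cdc6, Mcm2, Mcm3, Mcm4, Mcm6, Rrm2, Ccna2, Kif11 and Mki67. Replication licensing contributed 6 of its 10 members, G1 and G1/S genes 4 of 7, and the mitotic kinases and checkpoint genes 0 of 8. Only Cdkn1a was higher in all 5 cultures (3.65% of all genes were). The values came from 5 pairs of libraries, and members can move together within a pair, so the shares are descriptions and not tests. The sizes were small: mean changes were -0.22 for E2f1, -0.20 for Cdc6, -0.15 for Mki67, -0.12 for Mcm4 and -0.10 for Mcm2. Rescaling each library to TPM (the same sum of values in every library) left 9 members lower in all 5 cultures, against 2.36% of all genes. These were Ccne2, Cdk2, E2f1, Mcm4, Mcm6, Rrm2, Ccna2, Kif11 and Mki67. The licensing genes Cdc6, Cdc45, Mcm2 and Mcm3 and the G1 and G1/S genes Ccne1 and Cdc25a dropped out, so the shares by role depend on the scaling. Scaling each library by the median ratio of its genes to their geometric means over the libraries left 13 members, against 3.55% of all genes. Of the 15, only Cdc6 and Cdk2 dropped out there. With either knockout culture or any 1 heterozygous culture left out, 16 to 19 members were lower in all 4 remaining cultures (6.34% to 13.0% of all genes). Leaving a culture out can only keep or raise such a count, so it is no check on the 15. In at least 4 of the 5 cultures 25 members were lower (58.1%, against 23.3%) and 4 were higher (9.3%, against 18.9%).

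**Figure D2:**
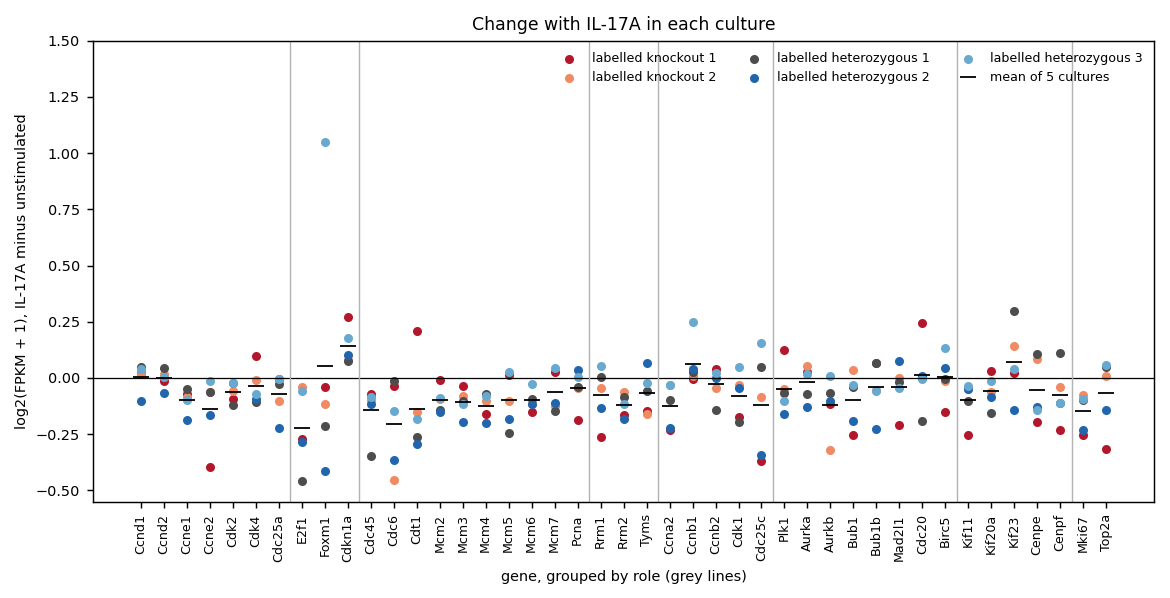
Change with IL-17A for the 43 genes in each of the 5 cultures (points) and their mean (black lines), as the difference in log2(FPKM + 1) between the IL-17A and the unstimulated library. Most points lie a little below 0, all 5 points of Cdkn1a lie above it, and the point of Foxm1 near 1 is heterozygous culture 3.

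When each culture's 2 libraries were compared with each other, by adding the culture number as a block, the median SE of the members went from 0.10 to 0.05 and still no member passed the adjusted threshold (10 genes did, 0.083%). At an unadjusted p under 0.05, 11 of 43 members stood out over the 5 cultures (25.6%, against 6.37% of all genes). The 10 lower ones were Aurkb, Ccna2, Cdc45, E2f1, Mcm2, Mcm3, Mcm4, Mcm6, Mki67 and Rrm2, and the higher one was Cdkn1a. In that fit the SE of E2f1 was 0.07 and its adjusted p 0.709, and for Rrm2 the change was -0.12 (SE 0.04) with an adjusted p of 0.659. With the block, 9 members had an unadjusted p under 0.05 without knockout culture 1 and 6 did without heterozygous culture 1, against 9.34% and 5.92% of all genes.

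The second question was whether loss of BCL10 altered these genes. Among unstimulated libraries no member passed (0 of 43, and 0.0% of all genes), and among IL-17A libraries none did (0 of 43, against 0.0249%), by limma with Benjamini-Hochberg adjustment. The medians of the members were 0.05 and 0.03, beside -0.01 and -0.0094 over all genes. Both member medians took either sign when 1 library was left out, from -0.02 to 0.11 and from -0.02 to 0.09. At an unadjusted p under 0.05 there were 3 members unstimulated (Ccnd2, Ccne1 and Ccnb2; 4.66% of all genes) and 6 with IL-17A (those 3, Ccnb1, E2f1 and Tyms; 8.14%). Ccnd2, which encodes cyclin D2 (ENSMUSG00000000184, chromosome 6, 127125162 to 127152193), stood at 186 and 185 FPKM in knockout culture 1, 163 and 165 in knockout culture 2, and 147 and 152, 114 and 109, and 131 and 131 in heterozygous cultures 1, 2 and 3. All 4 knockout libraries were above all 6 heterozygous ones, with differences of 0.42 (SE 0.16) and 0.43 (SE 0.16) unstimulated and with IL-17A (adjusted p = 0.728 and 0.507, limma). Ccne1, which encodes cyclin E1, was 17.7 and 16.8 FPKM in knockout culture 1, 16.7 and 15.7 in knockout culture 2, and 15.2 and 14.6, 13.4 and 11.6, and 13.6 and 12.7 in heterozygous cultures 1, 2 and 3. Its level too was higher in every knockout library than in any heterozygous library of the same condition. Ccnb2 was 34.8 and 35.8 FPKM in knockout culture 1, 39.1 and 37.9 in knockout culture 2, and 45.97 and 41.5, 42.6 and 42.6, and 43.7 and 44.3 in heterozygous cultures 1, 2 and 3. All knockout libraries were below all heterozygous ones, and the differences were -0.25 (SE 0.09) and -0.21 (SE 0.09). Unstimulated knockout libraries all lay above the heterozygous ones for 5 members and all below for 8, against 12.3% and 15.4% of all genes. With IL-17A this held for 5 and 4 members, against 14.8% and 13.8%, so such separation was about as frequent among members as among all genes. Against heterozygous cultures 2 and 3 alone, a comparison of 2 libraries with 2, the unstimulated knockout libraries lay above for 22 members and below for 10, beside 29.9% and 34.5% of all genes. With IL-17A they lay above for 15 and below for 9, beside 31.9% and 33.7%.

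Leaving out the libraries labelled heterozygous culture 1 gave no called member either (0 of 43 in each condition), while 1.05% and 6.7% of all genes passed. At an unadjusted p under 0.05, 9 members were then counted unstimulated and 16 with IL-17A, against 25.6% and 36.0% of all genes. Ccnd2 differed by 0.51 and 0.54 there (adjusted p = 0.114 and 0.0541, limma), and Ccne1 by 0.33 and 0.39 (adjusted p = 0.117 and 0.0501). Ccnb2 differed by -0.22 and -0.23 (adjusted p = 0.196 and 0.126), and unstimulated it was no longer among the members with an unadjusted p under 0.05. That comparison sets numbers 1 to 14 against numbers 33 to 38. With the number set as a term, which compares knockout cultures with heterozygous culture 1, the Ccnd2 differences were 0.22 (SE 0.14) and 0.22 (SE 0.14) and no member passed (0.0166% and 0.0332% of all genes did). Bcl10 was at 16.3 to 18.0 FPKM in heterozygous culture 1. It was at 16.4 to 17.0 in all knockout libraries but the unstimulated one of culture 1. That fit thus mostly compares libraries alike in Bcl10 and cannot tell what loss of BCL10 does. All 7 fibroblast markers were highest in knockout culture 2, where they summed to 30.2 FPKM in each library against 0.159 to 0.564 FPKM elsewhere, with Col1a1 at 10.8 and 10.6 FPKM. Their part in the genotype values was not tested.

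Whether loss of BCL10 altered the response to IL-17A was tested as the difference between the genotypes' changes. No member passed (0 of 43, and 0.0% of all genes, by limma), and none had an unadjusted p under 0.05 (1.19% of all genes did). The largest differences, knockout minus heterozygous, were 0.27 (SE 0.26) for Cdt1 and -0.22 (SE 0.59) for Foxm1. No member had 1 direction in both knockout cultures and the opposite one in all 3 heterozygous cultures, a pattern seen in 7.32% of all genes. With the culture number as a block the result was 0 of 43 members (0.0% of all genes) and none at an unadjusted p under 0.05 (5.18% of all genes). Without heterozygous culture 1 it was again 0 of 43 (0.0083%), with none at an unadjusted p under 0.05 (1.31%). The median SE of the difference was 0.21, and 0.10 with the block.

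**Figure D3:**
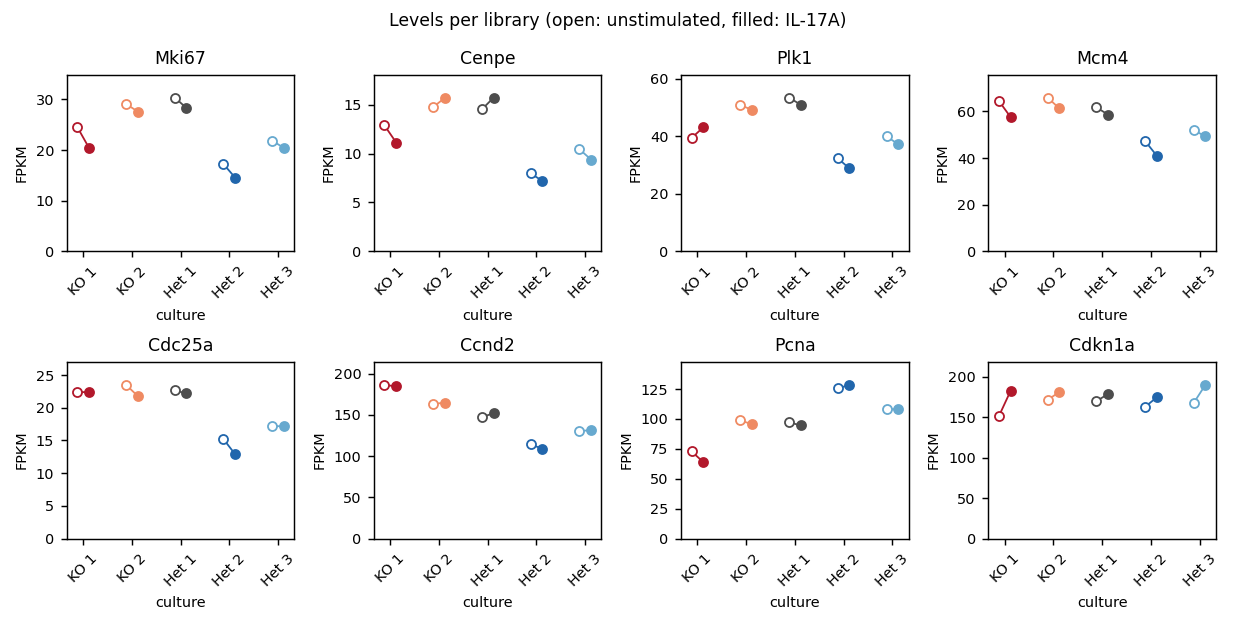
FPKM levels of 8 members in the 5 cultures (KO, labelled knockout, and Het, labelled heterozygous), unstimulated (open) and IL-17A (filled), joined within a culture. Mki67, Cenpe, Plk1, Mcm4, Cdc25a and Ccnd2 are lowest in Het 2, Pcna is lowest in KO 1, and Cdkn1a is higher with IL-17A in all 5.

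To describe how members varied between cultures of 1 labelled genotype, heterozygous cultures 2 and 3 were compared with heterozygous culture 1. Differences ran from -0.74 (Cenpe) to 0.33 (Mad2l1), beside -0.22 (E2f1) to 0.14 (Cdkn1a) for IL-17A over the 5 cultures. With libraries taken as independent, 10 of 43 members passed in limma (23.3%), close to the 23.0% of all genes. Of these, 9 were lower in cultures 2 and 3 (11.8% of all genes were) and 1 was higher (11.2% were). The lower members were Cenpe with -0.74 (SE 0.17) and an adjusted p of 0.024, Mki67 with -0.65 (SE 0.17) and 0.0338, and Plk1 with -0.59 (SE 0.15) and 0.0293. They also included Cdc25a (-0.50), Kif20a (-0.48), Cdt1 (-0.40), Ccna2 (-0.38), Mcm4 (-0.34) and Mcm3 (-0.33). The higher one was Cdk4 with 0.26 (SE 0.07) and an adjusted p of 0.0325. With TPM 13 members passed (20.0% of all genes did), 13 lower and 0 higher, beside 13.6% and 6.4% of all genes. The median over the members was -0.21, beside 0.02 over all genes. At an unadjusted p under 0.05, 21 members were counted, against 41.3% of all genes. Setting the 4 libraries numbered 33 to 38 against all 6 others, 10 members lay wholly below (17.4% of all genes) and 3 wholly above (18.4%).

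These calls rest on 1 culture against 2. With the culture as a random effect no member passed (4.83% of all genes did), the smallest adjusted p being 0.0597. With the mean of each culture's libraries no member passed either (0.174% of all genes). At an unadjusted p under 0.05 there were 17 members with the random effect (29.9% of all genes) and 8 with culture means (23.9%). The calls also moved with single libraries. None of the members passed without the unstimulated or the IL-17A library of heterozygous culture 1 (0.166% and 0.423% of all genes did) or without the unstimulated library of culture 2 (6.23%), and 2 passed without the IL-17A library of culture 2 (11.3%). Without the unstimulated or the IL-17A library of culture 3, 11 and 15 members passed (27.7% and 26.5%). Without both libraries of culture 2, 1 member passed (4.75%), and without both of culture 3, 21 did (37.7%). Without knockout culture 1, and likewise without knockout culture 2, 2 members passed (9.36%).

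**Figure D4:**
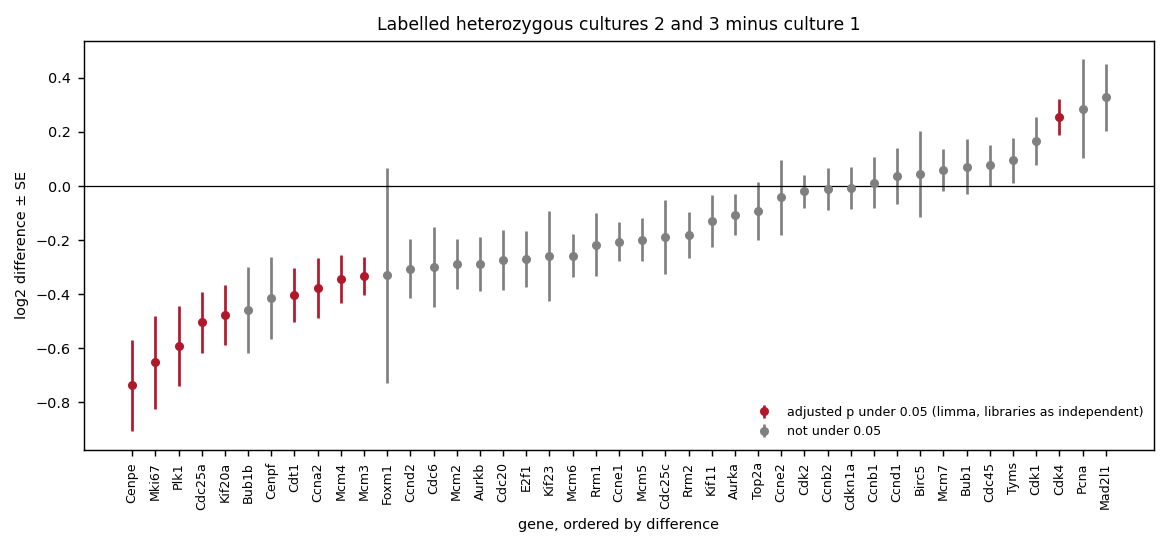
Difference between heterozygous cultures 2 and 3 and heterozygous culture 1 for the 43 genes, in log2(FPKM + 1) with 1 SE either way, ordered by size. Members in red had an adjusted p under 0.05 with libraries taken as independent, and Cenpe, Mki67 and Plk1 are the lowest.

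Other quantities also differed between the number sets. Bcl10 was at 59.5 to 72.3 FPKM in the libraries numbered 33 to 38 and at 0.969 to 18.0 in the others. Malt1 was at 2.49 to 2.65 against 4.62 to 5.26 FPKM. The comparison of heterozygous cultures is thus also one of high with low Bcl10. Of 6 genes of melanocytes, the pigment cells of the skin, 5 (all but Mitf) were higher in every library numbered 33 to 38 than in any other. The 6 summed to 316 to 407 FPKM there and to 169 to 197 FPKM in the other 6 libraries, with Mlana at 44.1 to 75.2 against 20.02 to 26.6 FPKM. The 5 keratinocyte markers summed to 8401 to 9792 against 10627 to 11934 FPKM. Mitochondrial transcripts took 1.11% to 1.49% of the FPKM sum against 1.67% to 2.07%. The leukocyte genes Ptprc, Cd3e, Cd207 and Itgam were listed at 0 in every library, and the fifth, Cd68, at 5.10 to 10.5 FPKM. The part of these quantities in the member differences was not tested. Across the 43 genes the difference had a Pearson r of -0.22 and a Spearman rho of -0.18 with exonic length, against -0.21 and -0.28 across 11669 genes from the same libraries, as a description only.

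Single libraries also stood out. The IL-17A library of heterozygous culture 2 was the lowest of the 10 for 23 members (53.5%, against 26.1% of all genes), and that of knockout culture 1 for 11 (25.6%, against 15.3%). Heterozygous culture 2 had the lowest culture mean for 24 members (55.8%, against 35.5% of all genes), among them Mcm2, Mcm3, Mcm4, Mcm6, Mki67 and Plk1. Knockout culture 1 had it for 16 (37.2%, against 21.7%), among them Pcna, Birc5, Ccnb1, Ccnb2, Cdk1 and Cdc20. The unstimulated library of knockout culture 1 had 12.6% of its FPKM sum in its 10 most abundant genes, against 8.21% to 8.66% elsewhere.

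Lists of other cell cycle genes were examined in the same way. Of 78 tested genes of replication, cell cycle transcription and mitosis that are not members, 0 passed in limma for IL-17A over the 5 cultures (0.0415% of all genes did). Of the 78, 1 had an unadjusted p under 0.05, against 1.43% of all genes. Their median change was -0.07, with lower values in 67 (54.5% of all genes had them). In all 5 cultures 14 of the 78 (17.9%) were lower, against 4.29% of all genes, among them E2f7, Skp2, Uhrf1, Dnmt1, Pola1 and Hmmr, and 1, Orc1, was higher (3.65% of all genes were). These genes too can move together, so the shares are descriptions. None of 10 p53 target genes, the class to which Cdkn1a also belongs, was higher in all 5 cultures. With 3.65% of all genes higher, a list of 10 is too short for that to tell. Their mean changes ran from -0.08 (Phlda3) to 0.24 (Gadd45a), 5 higher and 5 lower. Between heterozygous cultures 2 and 3 and culture 1, 16 of the 78 were lower and 3 higher with libraries taken as independent, beside 11.8% and 11.2% of all genes. With culture as a random effect 5 were lower and 0 higher, beside 2.64% and 2.19% of all genes, and with culture means 0 passed (0.174% of all genes did). The lowest values were those of E2f8 (-0.91) and E2f7 (-0.77), E2F family repressors, and Dnmt1 (-0.73), the maintenance DNA methyltransferase. The highest were those of Cdkn1b (0.59), which encodes the CDK inhibitor p27, and Gmnn (0.50), which encodes geminin, the inhibitor of CDT1.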

How the data were processed

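The authors deposited FPKM values per Ensembl gene identifier for 10 libraries, with depth not in the table. The submitters' processing notes list mm10 as the build and StringTie, HISAT2, DESeq2 and SAMtools as tools; their versions, the strand setting and the annotation are not given in these sources. A count model was not used, because FPKM values are normalized. Groups came from the labels. The 12054 genes averaging 1 FPKM or more were tested on log2(FPKM + 1), a scale that understates changes of low genes, with limma 3.58.1 in R 4.3.3 (trend, all 10 libraries, 4 group means, two-sided, Benjamini-Hochberg over all 12054 genes, threshold 0.05). The scripts were tested on simulated data.

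Same-numbered libraries of a genotype were checked for pairing by correlating their deviations from the group means over genes. The correlations were 0.227 for the knockout cultures and 0.607, 0.488 and 0.137 for heterozygous cultures 1, 2 and 3. The numbers were taken to pair them, but the check cannot establish pairing. With 2 knockout cultures both must give the same value. Among heterozygous cultures the difference between number sets can alone give correlated deviations. Members, lists and motifs were chosen with earlier results of these data known. Values in every library are given for 8 fixed members, for the most abundant member and those with the largest IL-17A and culture differences in each role, and for every member passing a test at the settings above. Ccnd2, Ccne1 and Ccnb2 were added after their values were seen. Exons of 15 members overlap another gene and 3 members have pseudogene copies. For 10 members an overlapping gene on the opposite strand averaged at least 1 FPKM, so reads may be shared. Besides Cdk4 and Cdk2 these were Mcm7 (Cops6, 40.3 FPKM), Cdc20 (Elovl1, 22.6), Kif20a (Cdc23, 11.1) and Ccna2 (Exosc9, 9.83). The others were Ccne2 (Ints8, 8.71), Cdc25c (Gm3550, 7.29), Cdc45 (Ufd1, 7.21) and Ccnd1 (LTO1, 3.07). Depth was estimated from low values of genes with exonic lengths of 300 to 3000 bp, where 48.5% to 55.3% of values lay within 0.05 of a whole fragment. It covers counting error only.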

Additional observations from a re-analysis of the deposited data

How the results depend on the processing

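No member passed for IL-17A, for genotype or for their difference under any scaling, pseudocount, filter, blocked or leave-one-out fit, and no called value reversed. The replicate block left the member count for IL-17A at 0. Leaving out 1 library at a time moved the members' median change from -0.12 to 0.0052 in heterozygous cultures, from -0.16 to 0.0089 in knockout cultures, from -0.12 to -0.0388 over the 5 cultures, from -0.02 to 0.11 and from -0.02 to 0.09 between genotypes unstimulated and with IL-17A, and from -0.068 to 0.0629 for the difference in response. The knockout median was -0.0477 with TPM and -0.0507 without knockout culture 1. Members lower with IL-17A in all 5 cultures numbered 9 with TPM and 13 with scaling by median ratios.

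For heterozygous cultures 2 and 3 against culture 1, the median was -0.3107 with TPM. Of 10 members called, 0 passed with culture means, 0 with culture as a random effect, 4 without the filter on low values (8.03% of all genes), and 0 to 15 with 1 library left out. Without both libraries of heterozygous culture 2, heterozygous culture 3, knockout culture 1 or knockout culture 2, the counts were 1, 21, 2 and 2. The cause of these differences was not tested. Means, random effect and the counts over 5 cultures were alternatives chosen after seeing the data. By estimated depth, 3 fragments on a gene of 1 kb come to at most 0.188 FPKM, below every member value. How depth bears on the precision of the changes was not tested.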
